A study of Homo sapiens with 282 samples.

Results

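CDKN1A, MDM2, MDM4, PPM1D and CCNG1, 5 genes wired into the p53 feedback loop, were followed under 14 compounds in OCI-Ly3, an established human line of diffuse large B cell lymphoma. The 5 genes were chosen by symbol, out of 18239 genes measured, and each was read from the probe set with the highest mean over all arrays. Cells grown in 96-well plates were treated 12 h after plating and total RNA of each well was hybridised to 1 of 282 Affymetrix HT HG-U219 arrays after 6, 12 or 24 h. The higher and lower concentrations were 0.105 and 0.036 uM for aclacinomycin A, 100 and 10 uM for blebbistatin, 0.31 and 0.01 uM for camptothecin, and 5 and 0.264 uM for cycloheximide. They were 0.101 and 0.03 uM for doxorubicin hydrochloride, 0.812 and 0.811 uM for etoposide, 0.032 and 0.001 uM for geldanamycin, and 20.2 and 12.4 uM for H-7, Dihydrochloride. They were 2.56 and 0.553 uM for mitomycin C, 100 and 50 uM for monastrol, 22 and 13.8 uM for rapamycin, 0.143 and 0.114 uM for trichostatin A, and 0.01 and 0.005 uM for vincristine. Methotrexate was given at 100 uM only. Each compound and concentration had 3 arrays per time, methotrexate 6, untreated medium 2 and DMSO, the vehicle, 8. The DMSO arrays are labelled 1% DMSO. The methotrexate arrays of a time bear only the replicate numbers 1 to 3, each on a pair of arrays, so they may be 3 samples measured again. No label says that replicates came from separate cultures, so p-values measure a spread that may be technical.

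p53 is a transcription factor held low by a loop of its own making. It switches on MDM2, an E3 ubiquitin ligase that marks p53 for destruction, and CDKN1A, whose product p21 binds and blocks cyclin-dependent kinases and so halts the cell cycle. MDM4 is a relative of MDM2 that binds the activation domain of p53 and silences it. PPM1D encodes WIP1, a phosphatase that is itself a p53 target and takes activating phosphates off p53 and the damage kinases. CCNG1 encodes cyclin G1, another p53 target, which brings a phosphatase to MDM2. DNA damage frees p53 from this loop, and its targets then include its own inhibitors.

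The promoters of MDM2 and CDKN1A are shown because these genes, the loop's main brake and its main output, head the results below. They differ in p53 matches within the windows searched. The sequences are from RefSeq on GRCh38.p14, run from 250 bases before to 50 bases after a start, and lie on the plus strand. CDKN1A lies at chr6:36676463-36687332 and MDM2 at chr12:68808172-68850686. The MDM2 window, chr12:68808767-68809066, sits at an annotated start inside the gene. Its capitals mark 2 matches to the p53 element, which reads the same on either strand. The element searched was a pair of RRRCWWGYYY decamers end to end, where R is A or G, W is A or T and Y is C or T. Pairs with a gap between the decamers were not searched.
MDM2: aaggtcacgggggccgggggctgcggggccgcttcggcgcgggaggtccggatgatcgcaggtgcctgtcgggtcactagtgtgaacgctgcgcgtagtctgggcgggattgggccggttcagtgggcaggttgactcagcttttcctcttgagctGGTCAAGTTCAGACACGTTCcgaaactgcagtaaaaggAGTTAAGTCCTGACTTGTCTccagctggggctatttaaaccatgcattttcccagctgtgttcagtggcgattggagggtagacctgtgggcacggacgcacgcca
The CDKN1A window, chr6:36678464-36678763, also lies inside its gene and was the only window searched for it. Its capitals mark GGGCGG, the core of a GC box, which occurs 4 times there, with the last pair overlapping. The MDM2 window above holds 1 GGGCGG, which is not marked.
CDKN1A: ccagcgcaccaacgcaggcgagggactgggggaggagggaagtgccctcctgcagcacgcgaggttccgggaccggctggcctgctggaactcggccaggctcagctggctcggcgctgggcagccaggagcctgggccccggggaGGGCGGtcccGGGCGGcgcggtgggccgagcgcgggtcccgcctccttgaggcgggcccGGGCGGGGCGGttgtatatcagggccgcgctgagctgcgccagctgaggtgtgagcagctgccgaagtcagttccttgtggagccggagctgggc
The MDM2 matches were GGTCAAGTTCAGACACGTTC with 2 mismatches, which begins at position -94 from the start, at chr12:68808923-68808942, and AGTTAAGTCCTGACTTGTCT with 3 mismatches, which begins at position -56, at chr12:68808961-68808980. Of 35116 such windows in the table, 0.649% held a p53 element with at most 2 mismatches, 5.2% one with at most 3, and 45% held GGGCGG on either strand. The best match in the CDKN1A window had 5 mismatches, those of MDM4 5, PPM1D 4 and CCNG1 6, and the windows at the upstream MDM2 starts 5. A match or its absence in 300 bases is a description of letters only. MDM4 lies at chr1:204516406-204558120, PPM1D at chr17:60600193-60666280 and CCNG1 at chr5:163437571-163457640.

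OCI-Ly3 kept part of its B cell label: IRF4, CD74 and HLA-DRA, which mark activated B cells and antigen presentation, averaged 13.16, 13.10 and 13.23 on the log2 scale in DMSO at 6 h. PAX5, the B lineage factor, was at 7.23, while MS4A1, CD79A, CD79B, CD22 and POU2AF1 lay at 3.84 to 5.02. The 5 T cell markers lay at 3.98 to 6.4, the 5 monocyte markers at 3.46 to 5.12 and the 5 fibroblast markers at 3.39 to 6.56. None of the 94 arrays of 6 h was low in signal, meaning an upper quartile of log2 values below 8 or ACTB probe sets at the 3' end more than 2 above those at the 5' end. There were 31 such arrays at 12 h, 4 of them DMSO, and 17 at 24 h, 1 of them DMSO. A comparison had a median standard error of 0.0988 at 6 h, and the later values, 0.299 (12 h) and 0.276 (24 h), fell to 0.176 and 0.12 without these arrays. For changes at 12 and 24 h the text therefore says whether a call held with all arrays or only without these, by limits known from earlier results of these data. A single 6 h array, described under CCNG1, also stood apart.

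At 6 h the loop divided by compound. The agents that damage DNA or trap topoisomerases, camptothecin, doxorubicin, etoposide and mitomycin C, raised CDKN1A and PPM1D at both concentrations and MDM2 at both, save mitomycin C at 0.553 uM. They left MDM4 uncalled. Each array averages the cells of a well, so a change in every cell and a larger one in some of them cannot be told apart. Cycloheximide at 5 uM, H-7 and trichostatin A also raised CDKN1A, MDM2 and PPM1D, each with its own pattern in MDM4 and CCNG1. A change is a log2 fold change ± standard error between 3 treated arrays (6 for methotrexate) and the 8 DMSO arrays taken at that time. It comes from limma, with p adjusted by Benjamini and Hochberg over all 18239 genes, and a call is an adjusted p under 0.05. Of 135 pairs of a gene and a compound group at 6 h, 47 were called higher and 4 lower, where 7.02% of all gene and group pairs were called higher and 6.69% lower. CDKN1A was called higher in 15 of 27 groups and lower in 1, MDM2 in 12 and 0, PPM1D in 14 and 0, MDM4 in 3 and 2, and CCNG1 in 3 and 1. At an unadjusted p under 0.05, limma put MDM2 lower in 1 group and PPM1D in 0.

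**Figure D1:**
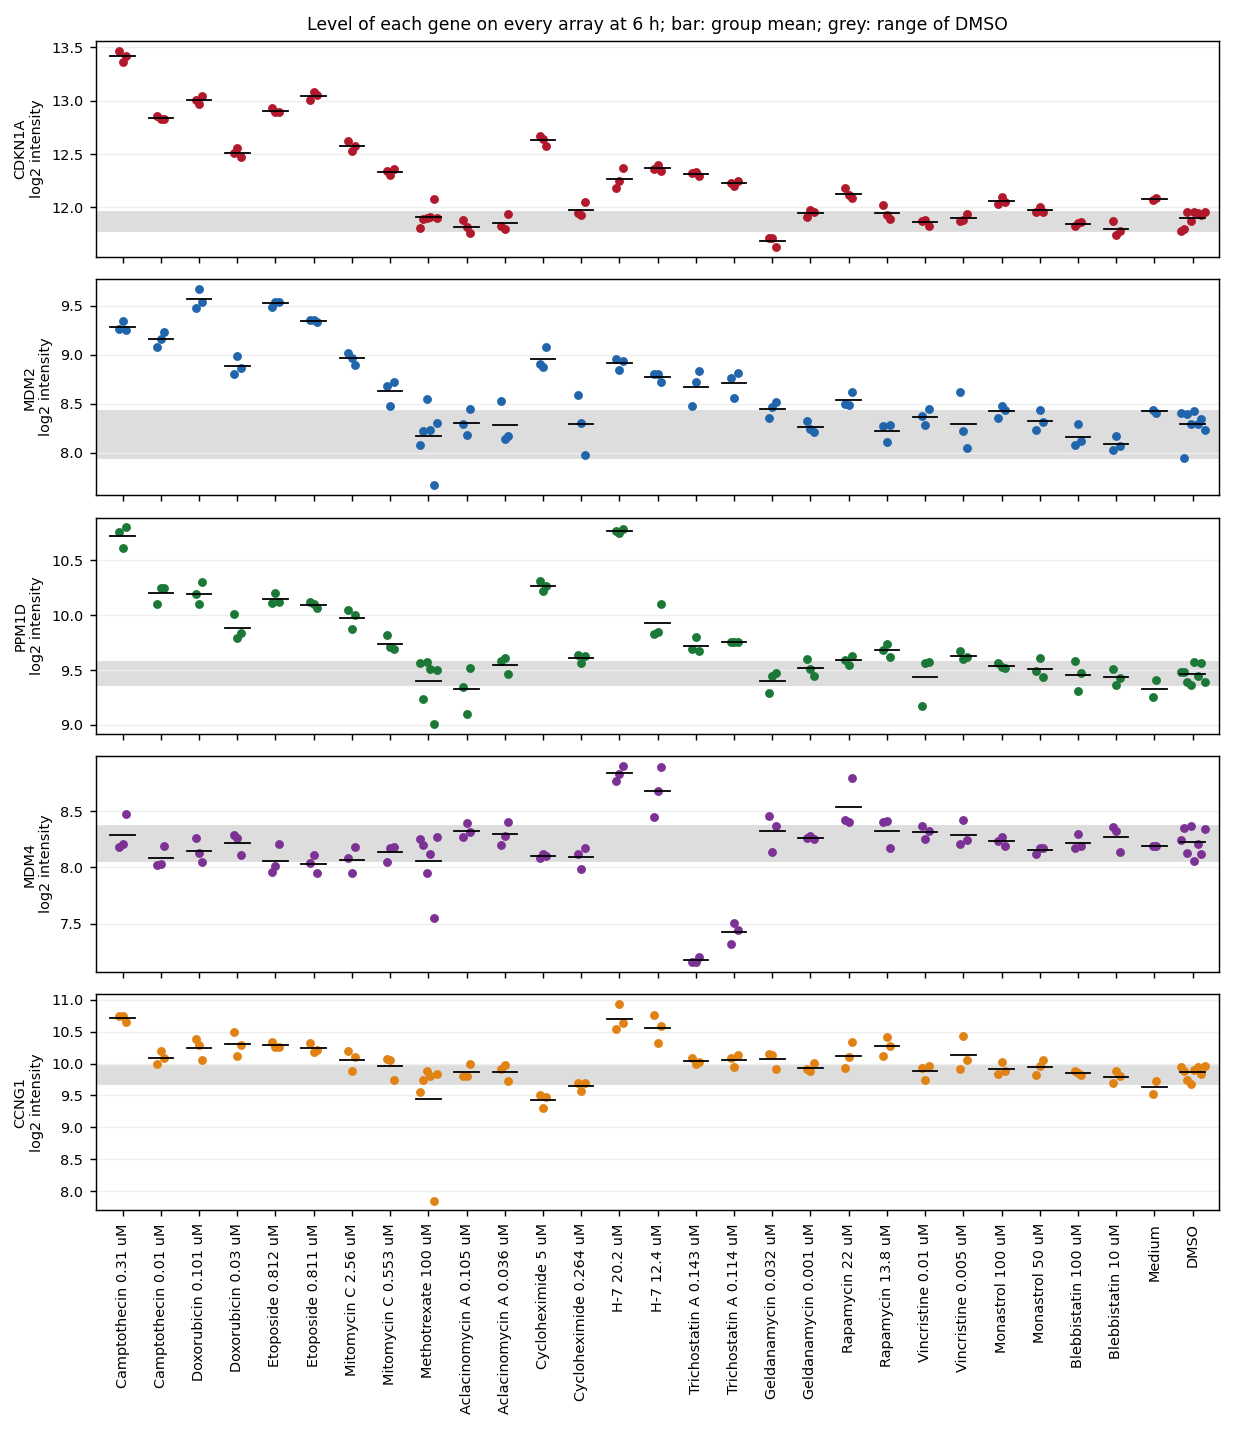
Log2 level of each gene on every 6 h array (vertical axis), by compound and concentration, with medium and DMSO at the right; dots are arrays, the short bar is the group mean and the grey band is the range of the 8 DMSO arrays. CDKN1A under camptothecin at 0.31 uM sits at 13.36 to 13.47, far above the DMSO band of 11.78 to 11.96, and MDM4 under trichostatin A at 0.143 uM at 7.16 to 7.21, below its band.

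Camptothecin, which traps topoisomerase I on DNA, gave the highest CDKN1A of the 29 groups. The 3 arrays at 0.31 uM read 13.47, 13.36 and 13.42, against a lowest of 11.78, a median of 11.94 and a highest of 11.96 over the 8 DMSO arrays. No treated array came within 1 log2 unit of DMSO. The change was 1.52 ± 0.04 (adjusted p = 1.48e-52), a 2.86-fold rise. At 0.01 uM the arrays read 12.86, 12.83 and 12.83, also all above DMSO, and the change was 0.94 ± 0.04 (adjusted p = 1.16e-35).

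Topoisomerase II agents followed. CDKN1A read 13.01, 12.97 and 13.04 under doxorubicin, an anthracycline, at 0.101 uM, a change of 1.11 ± 0.04 (adjusted p = 2.23e-40), and 12.51, 12.56 and 12.47 at 0.03 uM, a change of 0.61 ± 0.04. Under etoposide it read 12.93, 12.89 and 12.89 at 0.812 uM and 13.01, 13.08 and 13.05 at 0.811 uM, with changes of 1.00 ± 0.04 and 1.15 ± 0.04. The nearly equal etoposide doses thus serve as a repeat, and their arrays did not overlap. Mitomycin C, a DNA crosslinker, gave 12.62, 12.53 and 12.58 at 2.56 uM (0.68 ± 0.04) and 12.34, 12.30 and 12.36 at 0.553 uM (0.43 ± 0.04), all above DMSO. Aclacinomycin A, an anthracycline like doxorubicin, left CDKN1A at 11.88, 11.82 and 11.76 at 0.105 uM, inside or just below the DMSO range. Its change was -0.08 ± 0.04 (adjusted p = 0.321, 95% interval -0.159 to -0.0033, unadjusted). The labelled doses of the anthracyclines, 0.105 and 0.101 uM, differ, so these values stand side by side without a test.

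CDKN1A also rose outside the DNA-damaging agents. Cycloheximide, which blocks translation, gave 12.67, 12.64 and 12.58 at 5 uM, a change of 0.73 ± 0.04 (adjusted p = 5.19e-29). H-7, a serine/threonine kinase inhibitor, gave changes of 0.37 ± 0.04 at 20.2 uM and 0.47 ± 0.04 at 12.4 uM. Trichostatin A, a histone deacetylase inhibitor, gave 0.41 ± 0.04 at 0.143 uM and 0.33 ± 0.04 at 0.114 uM. These groups all lay wholly above DMSO. Smaller rises were called for rapamycin, which inhibits mTOR, at 22 uM (0.23 ± 0.04, adjusted p = 1.46e-06) and for monastrol, an inhibitor of the mitotic kinesin Eg5, at 100 uM (0.16 ± 0.04, adjusted p = 0.00396). They have to be read beside medium: its arrays, 12.07 and 12.09, were also above all DMSO arrays, by 0.18 ± 0.05 (adjusted p = 0.0013; 8.87% of all gene and time pairs were called between medium and DMSO, and 20% without low-signal arrays). The single fall came with geldanamycin, an HSP90 inhibitor, at 0.032 uM. Its arrays read 11.71, 11.71 and 11.63, all below DMSO, a change of -0.22 ± 0.04 (adjusted p = 9.51e-06).

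The order of CDKN1A levels at 6 h ran camptothecin 0.31 uM (13.42), etoposide 0.811 uM (13.05), doxorubicin 0.101 uM (13.01), etoposide 0.812 uM (12.90), camptothecin 0.01 uM (12.84), cycloheximide 5 uM (12.63), mitomycin C 2.56 uM (12.58) and doxorubicin 0.03 uM (12.51). DMSO was 22 of 29. Of the 28 neighbours in the whole order, the arrays of 7 pairs did not overlap and those of 21 did. Among the leaders, etoposide 0.811 uM and doxorubicin 0.101 uM overlapped, and mitomycin C 2.56 uM overlapped both cycloheximide 5 uM above it and doxorubicin 0.03 uM below it, while those 2 groups lay apart. Over all groups CDKN1A was wholly above DMSO in 15 and wholly below in 1, where 6.38% of all gene and group pairs at 6 h were above and 6.18% below.

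MDM2 had a different leader. Doxorubicin at 0.101 uM put its log2 level at 9.48, 9.67 and 9.54, against a lowest of 7.95, a median of 8.32 and a highest of 8.43 in DMSO. All treated arrays lay more than 1 unit above DMSO, and the change was 1.27 ± 0.10 (adjusted p = 2.03e-19). Etoposide at 0.812 uM gave 9.49, 9.54 and 9.54 and a change of 1.23 ± 0.10 (adjusted p = 9.22e-19). Camptothecin at 0.31 uM, highest for CDKN1A, gave 9.26, 9.34 and 9.25 and a change of 0.99 ± 0.10 (adjusted p = 1.51e-15). The MDM2 arrays of doxorubicin and etoposide 0.812 uM overlapped each other. Those of etoposide 0.811 uM overlapped camptothecin, and both lay below the leading groups.

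The rest of the MDM2 rises were smaller. Mitomycin C at 2.56 uM gave 9.02, 8.97 and 8.90 (0.67 ± 0.10), cycloheximide at 5 uM gave 8.91, 8.88 and 9.08 (0.66 ± 0.10) and H-7 at 20.2 uM gave 8.96, 8.85 and 8.94 (0.62 ± 0.10), each wholly above DMSO. Trichostatin A at 0.143 uM gave 8.48, 8.72 and 8.83 (0.38 ± 0.10, adjusted p = 0.000458). MDM2 thus moved with CDKN1A in these groups. Mitomycin C at 0.553 uM missed the threshold at 0.33 ± 0.10 (adjusted p = 0.0737) and rapamycin at 22 uM at 0.24 ± 0.10 (adjusted p = 0.0514). Both passed, at 0.0249 and 0.0254, once the single uneven 6 h array described under CCNG1 was left out. Aclacinomycin A at 0.105 uM left MDM2 at 8.30, 8.18 and 8.45, a change of 0.01 ± 0.10 (adjusted p = 0.967, 95% interval -0.176 to 0.206).

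PPM1D had its highest mean under H-7, level with camptothecin. At 20.2 uM its log2 level was 10.77, 10.75 and 10.79, against a lowest of 9.36, a median of 9.46 and a highest of 9.57 in DMSO, a change of 1.31 ± 0.07 (adjusted p = 7.48e-29). Camptothecin at 0.31 uM gave 10.76, 10.61 and 10.80, a change of 1.26 ± 0.07 (adjusted p = 5.16e-28), and its arrays overlapped those of H-7. Every array of both groups was more than 1 unit above DMSO. Cycloheximide at 5 uM came next with 10.31, 10.22 and 10.27 (0.81 ± 0.07, adjusted p = 1.68e-16), then camptothecin at 0.01 uM and doxorubicin at 0.101 uM (0.74 ± 0.07 for each) and etoposide at 0.812 uM (0.68 ± 0.07). Doxorubicin at 0.101 uM read 10.19, 10.10 and 10.30 and etoposide 10.11, 10.20 and 10.12, so these groups overlapped. PPM1D also passed under mitomycin C at 2.56 uM (0.51 ± 0.07) and 0.553 uM (0.28 ± 0.07, adjusted p = 0.0289), and under trichostatin A at 0.143 uM (0.26 ± 0.07, adjusted p = 0.00168). Its rise with rapamycin was called at 13.8 uM (0.22 ± 0.07, adjusted p = 0.0225), while 22 uM gave 0.13 ± 0.07 (adjusted p = 0.203).

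MDM4, the p53 silencer, was called in 5 groups at 6 h. Trichostatin A lowered it to 7.16, 7.16 and 7.21 at 0.143 uM, against a lowest of 8.06, a median of 8.22 and a highest of 8.37 in DMSO. The change was -1.05 ± 0.09 (adjusted p = 6.73e-19), 0.483 times the DMSO level. At 0.114 uM it read 7.32, 7.51 and 7.45, also wholly below DMSO, a change of -0.80 ± 0.09 (adjusted p = 1.97e-13). MDM4 thus ran opposite to MDM2, CDKN1A and PPM1D under this compound. H-7 did the reverse and raised it to 8.77, 8.83 and 8.90 at 20.2 uM (0.61 ± 0.09, adjusted p = 4.12e-09) and 8.45, 8.68 and 8.89 at 12.4 uM (0.45 ± 0.09, adjusted p = 1.42e-05). Rapamycin at 22 uM gave 8.42, 8.40 and 8.79 (0.31 ± 0.09, adjusted p = 0.00371). Under the 4 DNA-damaging agents the 6 h changes lay between -0.19 ± 0.09 (etoposide 0.811 uM, adjusted p = 0.215) and 0.06 ± 0.09 (camptothecin 0.31 uM, adjusted p = 0.628).

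CCNG1 rose at 6 h with camptothecin and H-7. Camptothecin at 0.31 uM gave 10.75, 10.74 and 10.65, against a lowest of 9.68, a median of 9.89 and a highest of 9.96 in DMSO, a change of 0.85 ± 0.15 (adjusted p = 1.49e-06). H-7 gave 10.54, 10.93 and 10.63 at 20.2 uM (0.84 ± 0.15) and 10.76, 10.33 and 10.59 at 12.4 uM (0.70 ± 0.15, adjusted p = 0.00012). All of these arrays lay above DMSO. Cycloheximide at 5 uM lowered CCNG1 to 9.51, 9.30 and 9.48, all below DMSO, a change of -0.43 ± 0.15 (adjusted p = 0.0217), while CDKN1A, MDM2 and PPM1D rose in the same wells.

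The spread of CCNG1 at 6 h rested on 1 array. Methotrexate arrays read 9.55, 9.75, 9.88, 9.80 and 9.83, and a sixth, bearing replicate number 3, read 7.85. That array also had the largest ACTB 3' minus 5' difference of the 94 arrays of 6 h, 0.9. Without it, CCNG1 was called higher in 10 groups and lower in 1, where 7.49% of all gene and group pairs were called higher and 7.12% lower. The added calls included doxorubicin at 0.101 uM, with 10.39, 10.29 and 10.06 (0.39 ± 0.15, adjusted p = 0.127 with the array and 0.000617 without), and etoposide at 0.812 uM, with 10.34, 10.26 and 10.26 (0.43 ± 0.15, adjusted p = 0.113 and 0.000152). Rapamycin at 13.8 uM (0.41 ± 0.15) passed at 8.87e-05 instead of 0.0506. Methotrexate itself changed CCNG1 by -0.42 ± 0.12 with the array (adjusted p = 0.0521) and by -0.10 without it (adjusted p = 0.736). The fall under cycloheximide stood either way.

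Concentration mattered for some compounds at 6 h. Of 65 pairs of a gene and a compound, 13 differed between the higher and the lower concentration, where 8.51% of all such pairs were called. Camptothecin at 0.31 uM exceeded 0.01 uM by 0.58 ± 0.05 in CDKN1A (adjusted p = 7.79e-19), 0.52 ± 0.09 in PPM1D and 0.63 ± 0.19 in CCNG1 (adjusted p = 0.00383). MDM2 and MDM4 gave no call: MDM2 arrays read 9.26, 9.34 and 9.25 at 0.31 uM and 9.08, 9.16 and 9.23 at 0.01 uM (0.13 ± 0.12, adjusted p = 0.441), and MDM4 differed by 0.21 ± 0.10 (adjusted p = 0.117). Doxorubicin at 0.101 uM exceeded 0.03 uM in CDKN1A (0.49 ± 0.05), MDM2 (0.68 ± 0.12, adjusted p = 2.78e-05) and PPM1D (0.32 ± 0.09, adjusted p = 0.0381). Cycloheximide at 5 uM exceeded 0.264 uM by 0.65 ± 0.05, 0.66 ± 0.12 and 0.66 ± 0.09 in the same 3 genes, and 0.264 uM gave no call against DMSO (1 gene at an unadjusted p under 0.05 by limma, with 5.32% of all genes called higher and 4.45% lower). H-7 separated its doses in PPM1D alone among the 5 genes, by 0.84 ± 0.09 (adjusted p = 2.05e-13), with 9.83, 9.85 and 10.10 at 12.4 uM. The remaining calls were CDKN1A under mitomycin C (0.24 ± 0.05), rapamycin (0.18 ± 0.05) and geldanamycin (-0.27 ± 0.05).

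**Figure D2:**
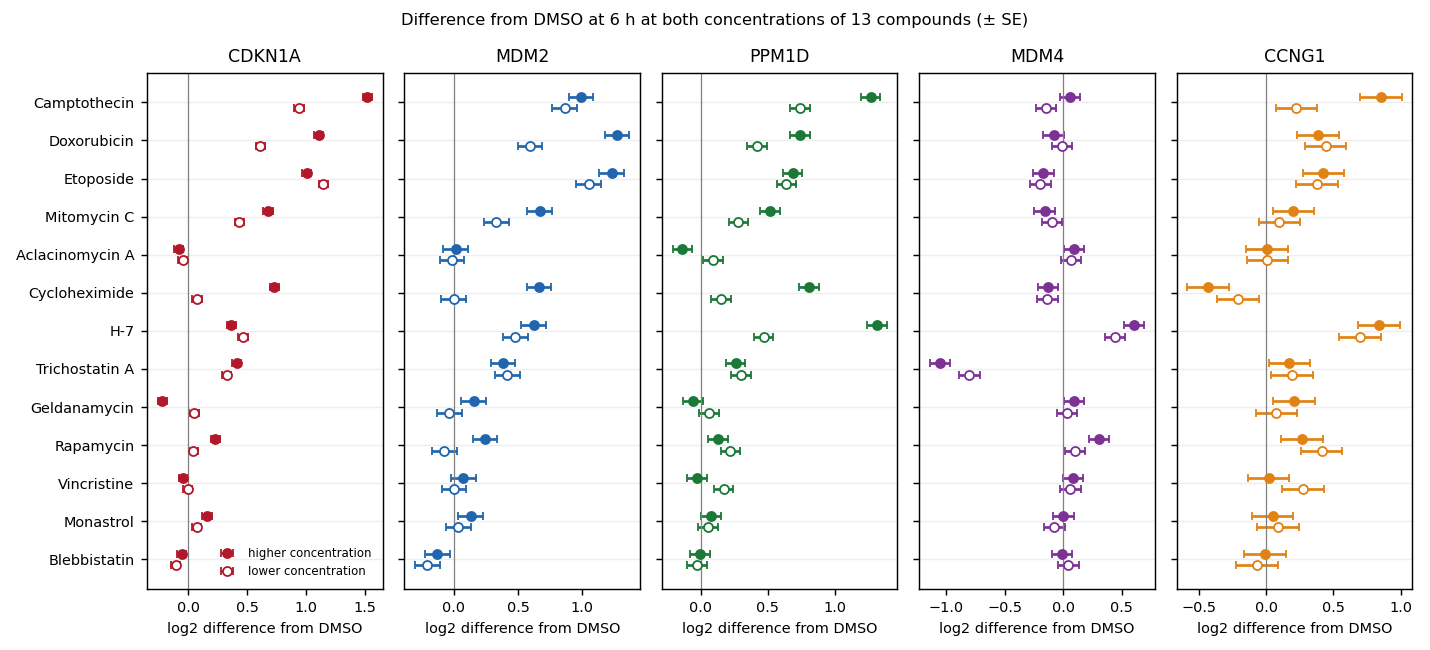
Log2 fold change against DMSO at 6 h (one axis per gene) for 13 compounds, with the higher concentration as a filled and the lower as an open point, each ± standard error. For H-7 the PPM1D points stand at 1.31 and 0.47, while the CDKN1A points, 0.37 and 0.47, lie close together.

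Methotrexate, which starves the cell of reduced folates, acted late. At 6 h CDKN1A ranged from 11.81 to 12.08 over 6 arrays, with a median of 11.90, around the DMSO range, a change of 0.01 ± 0.03 (adjusted p = 0.872). At 12 h it ranged from 11.87 to 11.98, against 11.81 to 12.01 in DMSO, and limma called 0 of the 5 genes with the low-signal arrays (0 at an unadjusted p under 0.05, and 0% of all genes called) or without them (1 unadjusted). At 24 h it ranged from 13.29 to 13.43, with a median of 13.38, against 11.72 to 12.12 in DMSO, with a median of 11.93. All 6 arrays stood more than 1 unit above DMSO, and the change was 1.46 ± 0.18 (adjusted p = 3.25e-09), or 1.47 ± 0.04 without low-signal arrays.

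The same step appeared in MDM2 and PPM1D. At 24 h methotrexate put MDM2 at 10.31 to 10.58, against 7.88 to 8.90 in DMSO, a change of 2.11 ± 0.35 (adjusted p = 7.12e-06), a 4.31-fold rise. PPM1D was at 11.11 to 11.25, against 9.0 to 9.72, a change of 1.87 ± 0.21 (adjusted p = 1.57e-10). MDM4 fell: its arrays read 8.07, 7.71, 7.89, 7.91, 7.77 and 7.91, all below the DMSO range of 8.46 to 8.93, a change of -0.74 ± 0.20 (adjusted p = 0.0122) and -0.70 ± 0.08 without low-signal arrays (adjusted p = 1.1e-10). CCNG1, at 10.04 to 10.28, lay above DMSO (8.40 to 9.53). Its change of 1.16 ± 0.42 missed the threshold with all arrays (adjusted p = 0.118) and passed without the low-signal ones at 1.10 ± 0.12 (adjusted p = 1.19e-12). Medium, at 9.71 and 9.61, also lay above all DMSO arrays in CCNG1. It differed by 0.59 ± 0.17 without low-signal arrays (adjusted p = 0.00613) and 0.65 ± 0.62 with all (adjusted p = 0.999). CCNG1 rises at 24 h have to be read beside it. At 24 h every methotrexate array thus lay above DMSO in CDKN1A, MDM2, PPM1D and CCNG1 and below it in MDM4. How many of all genes separate from DMSO in this way at 24 h was not counted, so this separation has no background. By limma with all arrays, 3 of these genes were called higher and 1 lower, where 3.42% and 1.32% of all genes were.

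The difference between times was itself tested over all 282 arrays as the 24 h change minus the 6 h change. For methotrexate it was 1.44 ± 0.21 in CDKN1A (adjusted p = 7.43e-08), 2.23 ± 0.37 in MDM2 (adjusted p = 2.65e-06) and 1.93 ± 0.29 in PPM1D (adjusted p = 7.21e-08). CCNG1 gave 1.58 ± 0.41 (adjusted p = 0.0117), and 1.26 ± 0.42 without the uneven 6 h array (adjusted p = 0.103). Of 70 pairs of a gene and a compound at its higher concentration, 8 were called, where 3.2% of all pairs were, and 33 without low-signal arrays, where 16.3% were. Mitomycin C at 2.56 uM added a later rise in CDKN1A, by 0.84 ± 0.27 (adjusted p = 0.0258). Without low-signal arrays its later rise was also called in MDM2 (1.45 ± 0.21) and PPM1D (1.41 ± 0.13). With all arrays these were -0.35 ± 0.47 and 0.90 ± 0.36. Doxorubicin at 0.101 uM grew in MDM2 by 0.93 ± 0.19 and in PPM1D by 0.84 ± 0.12, called only without low-signal arrays. Camptothecin at 0.31 uM went down in CDKN1A, by -0.37 ± 0.07, also called only without them. H-7 at 20.2 uM went down in PPM1D, by -1.72 ± 0.36 (adjusted p = 0.000304), and by -1.29 without low-signal arrays. Its calls for CDKN1A (-0.93 ± 0.27) and MDM4 (-0.81 ± 0.28) were lost without them, at 0.14 and -0.37 (adjusted p = 0.0568 for MDM4).

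**Figure D3:**
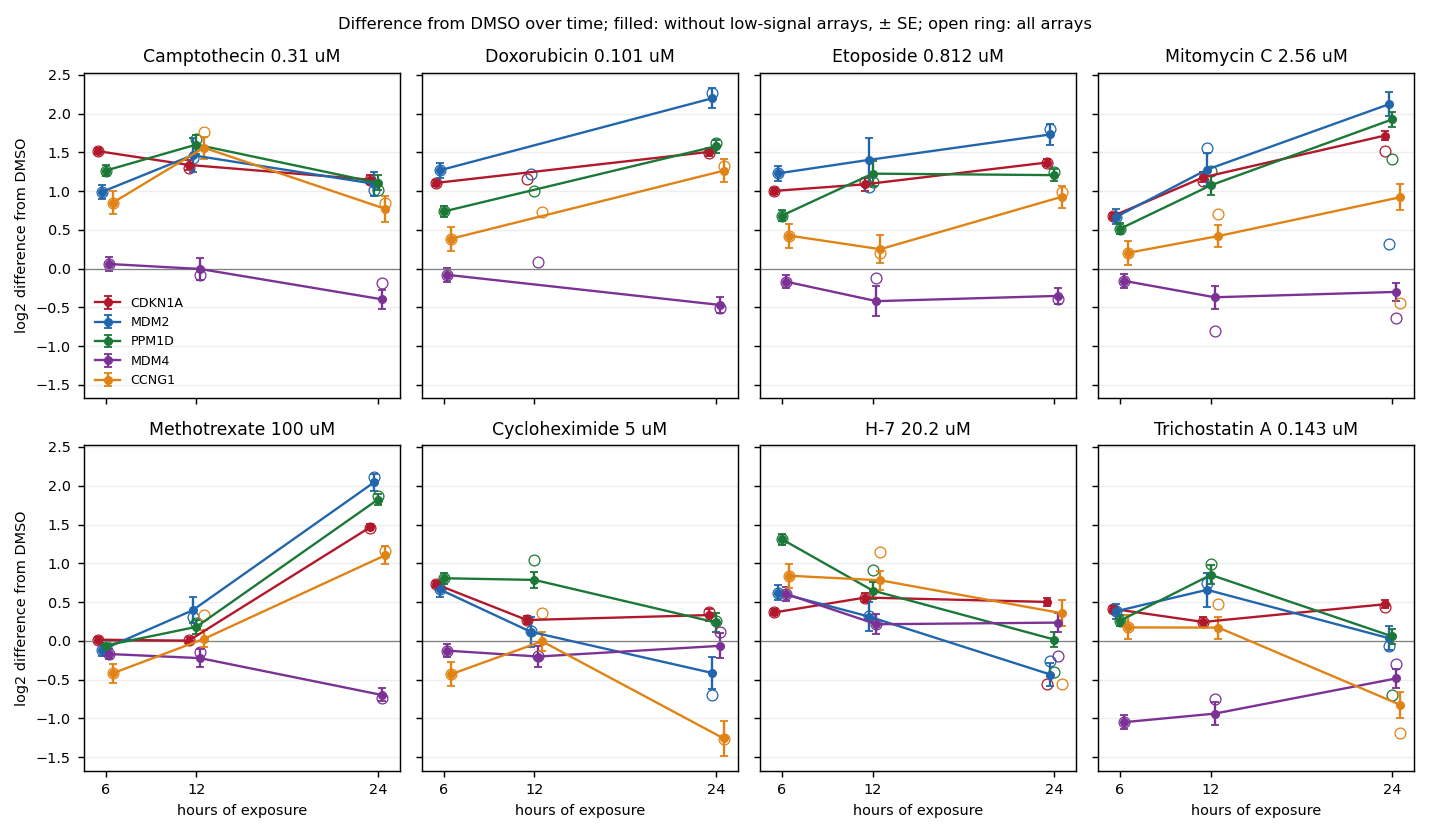
Log2 fold change against DMSO (vertical axis) at 6, 12 and 24 h (horizontal axis) for 8 compounds at their higher concentration; filled points are without low-signal arrays, ± standard error, and open rings use all arrays. Methotrexate stays near 0 at 6 and 12 h in CDKN1A and reaches 1.47 at 24 h, beside doxorubicin at 1.5, and doxorubicin has no filled point at 12 h.

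At 24 h, without low-signal arrays, CDKN1A, MDM2, PPM1D and CCNG1 were called higher under camptothecin, doxorubicin, etoposide and mitomycin C at both concentrations. MDM4 was not called higher under these agents and was called lower in part of their groups. The rises did not all keep their earlier size, as given above. How many genes were called turned on the low-signal arrays. With all arrays 22 of 135 pairs were called higher and 4 lower, where 2.45% and 3.34% of all pairs were. Without low-signal arrays 56 of 130 pairs were called higher and 13 lower, where 8.77% and 9.45% of all pairs were, and the 12.4 uM group of H-7 lost all its arrays. By gene, CDKN1A was then higher in 19 of 26 groups and lower in 1, MDM2 in 13 and 3, PPM1D in 11 and 0, CCNG1 in 13 and 2, and MDM4 in 0 and 7. In CCNG1 untreated medium was then called higher than DMSO too, by 0.59 ± 0.17 (adjusted p = 0.00613). At an unadjusted p under 0.05, limma put MDM4 higher in 1 group and PPM1D lower in 0.

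Doxorubicin at 0.101 uM had no low-signal array at 24 h. CDKN1A read 13.41, 13.36 and 13.44, MDM2 10.56, 10.68 and 10.54, and PPM1D 10.96, 10.96 and 10.94, each wholly above DMSO. Their changes without the low-signal DMSO array were 1.5 ± 0.05, 2.20 ± 0.13 and 1.58 ± 0.08, and all 3 were called with all arrays too (1.49, 2.26 and 1.63). MDM4 read 8.12, 8.10 and 8.10, wholly below DMSO (-0.47 ± 0.10, adjusted p = 0.000138, and -0.51 with all arrays, adjusted p = 0.332). CCNG1 read 10.39, 10.30 and 10.31 (1.26 ± 0.14, and 1.32 with all arrays, adjusted p = 0.167), where medium read 9.71 and 9.61, above all DMSO arrays. Aclacinomycin A at 0.105 uM, the other anthracycline, left CDKN1A at 11.84, 11.90 and 11.92 and PPM1D at 9.26, 9.29 and 9.41, inside the DMSO ranges, and limma called 0 of the 5 genes (0 at an unadjusted p under 0.05, and 1 without low-signal arrays), with 0% of all genes called. Its MDM2 arrays read 8.80, 8.66 and 8.61, a change of 0.29 ± 0.13 without low-signal arrays (adjusted p = 0.999).

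Mitomycin C shows what 1 array can do. At 2.56 uM and 24 h its MDM2 arrays read 10.36, 4.92 and 10.67, the low one being a low-signal array, and the change was 0.32 ± 0.43 with all arrays but 2.12 ± 0.15 without that kind (adjusted p = 4.1e-19). CDKN1A on that array, 13.04, was also below its partners at 13.63 and 13.60, by less than MDM2 was, and still above all DMSO arrays. Mitomycin C raised CDKN1A by 1.72 ± 0.05 and PPM1D by 1.93 ± 0.10 without low-signal arrays, and by 1.51 ± 0.23 and 1.41 ± 0.26 with all, also called. Camptothecin at 0.31 uM gave MDM2 arrays of 9.07, 9.41 and 9.57, the first low in signal, below the 10.18, 10.07 and 10.40 of 0.01 uM. The higher minus the lower camptothecin dose was then negative without low-signal arrays in CDKN1A (-0.26 ± 0.06, adjusted p = 0.000608), MDM2 (-0.73 ± 0.17, adjusted p = 0.000656) and PPM1D (-0.32 ± 0.11, adjusted p = 0.0196), and uncalled with all arrays. Doxorubicin kept the other order, with 0.101 uM above 0.03 uM by 0.37 ± 0.06 in CDKN1A and 1.05 ± 0.16 in MDM2 without low-signal arrays, and these calls too were lost with all arrays. With all arrays 2 of 65 pairs were called between doses at 24 h, where 2.69% of all pairs were, and without low-signal arrays 14, where 10.4% were. The calls with all arrays were both for H-7, whose 12.4 uM arrays were all low in signal.

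**Figure D4:**
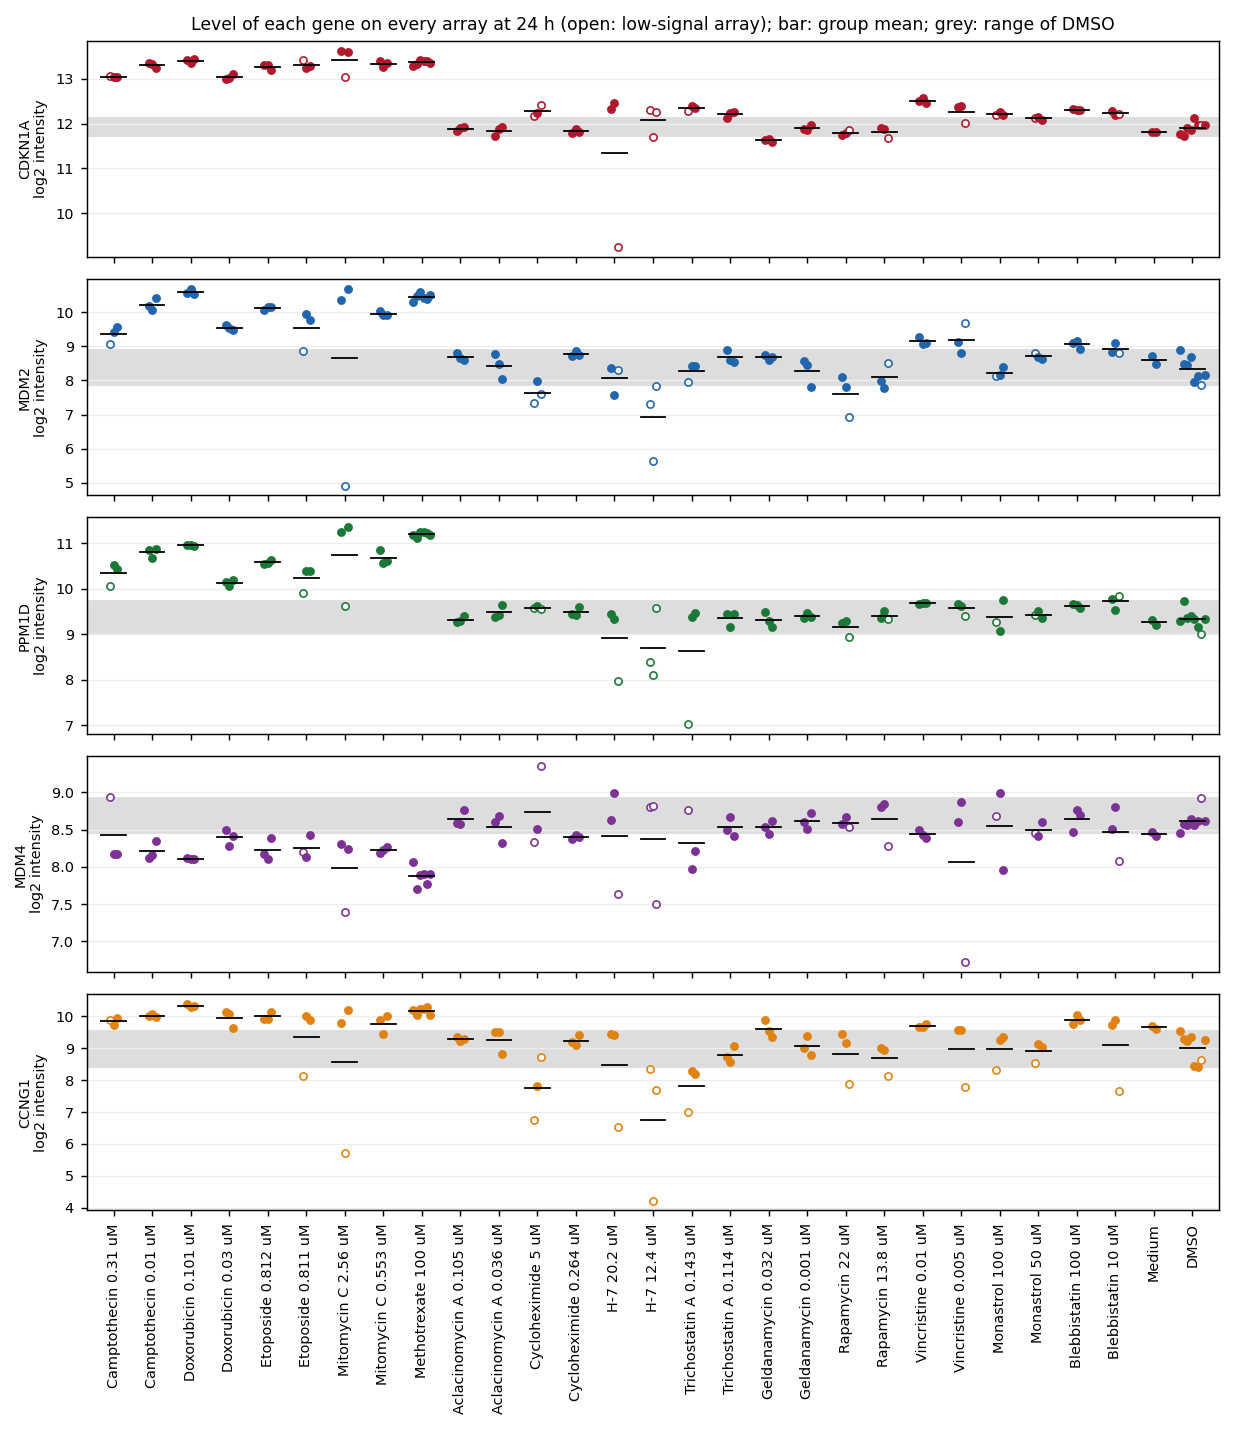
Log2 level of each gene on every 24 h array (vertical axis), by compound and concentration, with medium and DMSO at the right; open dots are low-signal arrays, the short bar is the mean and the grey band the range of the 8 DMSO arrays. In MDM2 the mitomycin C group has closed dots at 10.36 and 10.67 and an open one at 4.92.

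Vincristine and blebbistatin, which act on the spindle and the cell cortex, raised part of the loop at 24 h only once low-signal arrays were left out. Neither group held such an array itself, but with all arrays limma called 0 of the 5 genes under either, with 1 gene higher at an unadjusted p under 0.05 for vincristine at 0.01 uM and 0 for blebbistatin at 100 uM. Over all compound groups at 24 h, 2.45% of gene and group pairs were called higher and 3.34% lower with all arrays. Without low-signal arrays 8.77% and 9.45% were. Vincristine, which binds tubulin, put CDKN1A at 12.50, 12.57 and 12.45 at 0.01 uM, wholly above DMSO. Without low-signal arrays its changes were 0.61 ± 0.05 in CDKN1A, 0.75 ± 0.13 in MDM2 (adjusted p = 2.27e-05), 0.30 ± 0.08 in PPM1D (adjusted p = 0.00907) and 0.62 ± 0.14 in CCNG1 (adjusted p = 0.00161). Blebbistatin, a myosin II inhibitor, at 100 uM gave 12.33, 12.30 and 12.31 for CDKN1A, a change of 0.41 ± 0.05, with 0.66 ± 0.13 in MDM2 and 0.82 ± 0.14 in CCNG1. MDM4 moved by -0.14 ± 0.10 and 0.07 ± 0.10 in these groups, not called. The CCNG1 values have to be read beside medium, whose arrays of 9.71 and 9.61 were above DMSO by 0.59 without low-signal arrays (adjusted p = 0.00613; 0.65 with all arrays, adjusted p = 0.999). At 6 h limma called 0 of the 5 genes under vincristine at 0.01 uM or blebbistatin at 100 uM, and 0 at an unadjusted p under 0.05. Of all genes, 0.532% were called higher and 0.417% lower under vincristine and 1.67% and 0.921% under blebbistatin. The change between times was called in CDKN1A for both without low-signal arrays, at 0.65 and 0.47, and for neither with all arrays, at 0.64 and 0.46 (adjusted p = 1.0 each). Monastrol at 100 uM, the other spindle agent, gave a call in CDKN1A alone without low-signal arrays, of 0.33 ± 0.05 (0.30 ± 0.23 with all arrays, adjusted p = 0.628), and its MDM2 change was -0.13 ± 0.15 (adjusted p = 0.541).

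Trichostatin A, cycloheximide, rapamycin and geldanamycin gave calls at 24 h without low-signal arrays that were all lost with them. With all arrays limma called 0 of the 5 genes in each of these 8 groups, and at an unadjusted p under 0.05 it put 2 genes lower under trichostatin A at 0.143 uM, 1 lower under cycloheximide at 5 uM and 0 in the others. The shares over all genes and all compound groups at 24 h were 2.45% higher and 3.34% lower with all arrays. They were 8.77% and 9.45% without low-signal arrays. Trichostatin A at 0.143 uM had MDM4 at 7.97 and 8.21 on its arrays of normal signal (-0.49 ± 0.12, adjusted p = 0.00111) and at 8.77 on the low-signal one (-0.30 ± 0.25 with all, adjusted p = 0.547). That difference from DMSO was smaller than at 6 h, by 0.57 ± 0.15 without low-signal arrays (adjusted p = 0.00148) and 0.75 ± 0.28 with all (adjusted p = 0.0653). At 0.114 uM, with no low-signal array, MDM4 read 8.50, 8.67 and 8.42, inside the DMSO range, a change of -0.05 ± 0.10 (adjusted p = 0.824). CDKN1A was higher by 0.47 ± 0.05 at 0.143 uM and 0.31 ± 0.05 at 0.114 uM without low-signal arrays. CCNG1 fell at 0.143 uM by 0.82 ± 0.17 on the log2 scale (adjusted p = 6.47e-05), with arrays of 8.29 and 8.20 and a low-signal one at 7.00 (-1.19 ± 0.53 with all, adjusted p = 0.201). Cycloheximide at 5 uM had a single array of normal signal, on which CCNG1 was 7.81, and the change was -1.26 ± 0.22 without the others, which assumes that this array varies like those of other groups (-1.26 ± 0.53 with all, adjusted p = 0.102). Rapamycin lowered MDM2 by 0.44 ± 0.15 at 22 uM (adjusted p = 0.0232) and by 0.51 ± 0.15 at 13.8 uM (adjusted p = 0.0137), again without low-signal arrays. With all arrays these were -0.72 ± 0.43 (adjusted p = 0.597) and -0.24 ± 0.43 (adjusted p = 0.827). Geldanamycin at 0.032 uM had CDKN1A at 11.64, 11.66 and 11.59, all below DMSO, a change of -0.27 ± 0.05 without the low-signal DMSO array (adjusted p = 4.4e-05) and -0.28 ± 0.23 with it (adjusted p = 1.0).

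The 12 h arrays, 31 of 94 of them low in signal, carried the widest errors. With all arrays 16 pairs were called higher and 5 lower, where 1.17% and 1.64% of all pairs were, and without low-signal arrays 38 and 4 of 115, where 4.68% and 4.08% were. Camptothecin at 0.31 uM raised CDKN1A by 1.3 ± 0.24, MDM2 by 1.43 ± 0.34, PPM1D by 1.67 ± 0.34 and CCNG1 by 1.76 ± 0.29 (adjusted p = 3.87e-06), the last with arrays of 11.25, 10.58 and 10.93, against 8.19 to 9.65 in DMSO. Without low-signal arrays these were 1.34, 1.46, 1.6 and 1.56, all called. The CCNG1 rise under camptothecin was called between doses too, by 1.22 ± 0.35 (adjusted p = 0.0278; 1.06 without low-signal arrays). Geldanamycin at 0.032 uM raised CCNG1 by 1.23 ± 0.29 (adjusted p = 0.0232; 0.83 without low-signal arrays) while CDKN1A fell by 0.44 ± 0.06 on the log2 scale without them and gave -0.36 ± 0.24 with all arrays (adjusted p = 0.815). Trichostatin A kept MDM4 down, by -0.76 ± 0.22 at 0.143 uM and -0.85 ± 0.22 at 0.114 uM, and by -0.94 and -0.855 without low-signal arrays. Calls for geldanamycin at 0.001 uM rested on a low-signal array on which CDKN1A read 8.94 and PPM1D 5.27, and none of them stood without it. MDM2 under blebbistatin at 100 uM (-1.12 ± 0.34) rested on 3 low-signal arrays.

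Several probe sets report each gene, 28 in all, and they mostly moved the same way at 6 h. Counts of probe sets that rose or fell are limma calls at an adjusted p under 0.05 over 49293 probe sets. Shares over all probe sets are not given here. Over all genes, 27% were called higher and 19.9% lower under camptothecin at 0.31 uM, and 3.4% and 3.74% under doxorubicin at 0.101 uM. For H-7 at 20.2 uM these were 23% and 27%, and for trichostatin A at 0.143 uM 22.3% and 22.4%. Both CDKN1A probe sets rose under camptothecin at 0.31 uM, and the one not used rose more, by 2.24 ± 0.07, as it did under doxorubicin at 0.101 uM (1.41 ± 0.07). All 4 PPM1D probe sets rose under camptothecin, doxorubicin, etoposide, mitomycin C, cycloheximide and H-7 at their higher doses. All 5 CCNG1 probe sets rose under camptothecin at 0.31 uM and fell under cycloheximide at 5 uM, by 0.43 to 0.67 on the log2 scale. MDM2 was less uniform: 11 of 11 probe sets rose under camptothecin at 0.31 uM, by 0.31 to 2.38, and 9 of 11 under doxorubicin at 0.101 uM. Under H-7 at 20.2 uM, 8 of 11 rose and 1 fell, so the MDM2 value there depends on the probe set. For MDM4, 5 of 6 fell under trichostatin A at 0.143 uM and 3 of 6 rose under H-7 at 20.2 uM, with changes of -0.22 to 0.84. At 24 h methotrexate raised 11 of 11 MDM2 and 4 of 4 PPM1D probe sets and lowered 2 of 6 for MDM4.

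**Figure D5:**
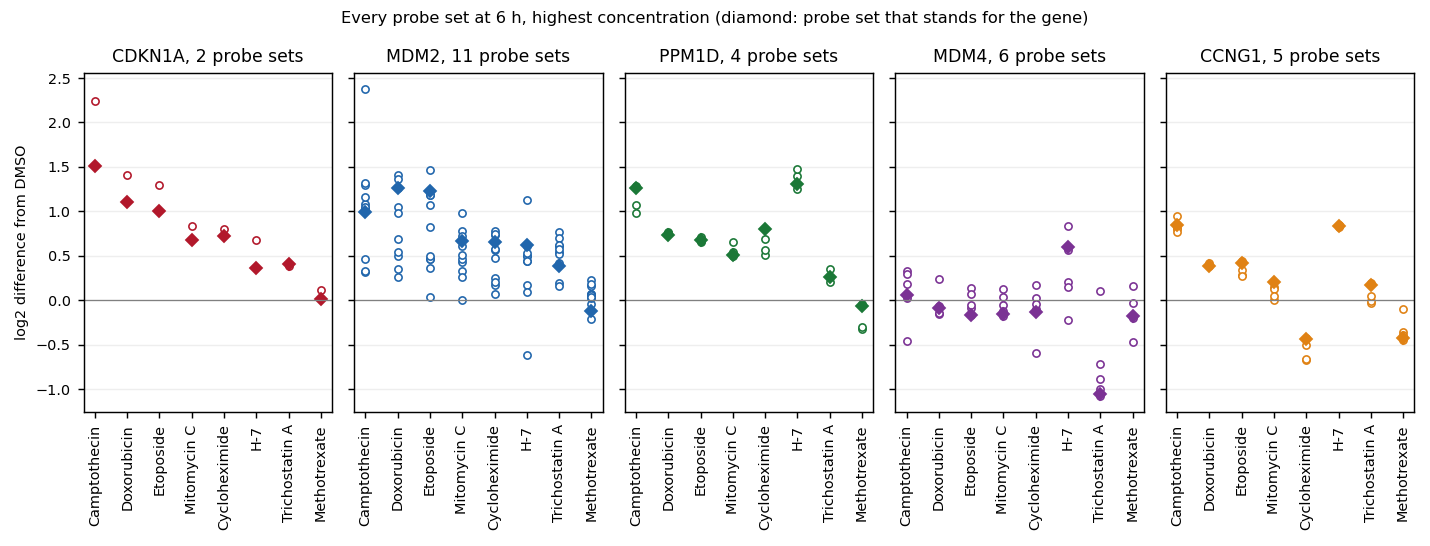
Log2 fold change against DMSO at 6 h for every probe set of each gene under 8 compounds at their higher concentration; the diamond is the probe set used and the open circles are the others. The MDM2 probe sets under camptothecin spread from 0.31 to 2.38, all above 0, and those under H-7 fall on both sides of 0.

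Other genes of the pathway were counted from lists, with the median change of a list beside that of all genes. Of 30 other p53 targets 28 were measured. Under camptothecin at 0.31 uM at 6 h limma called 26 of them higher and 0 lower (26 and 0 at an unadjusted p under 0.05), where 27% of all genes were called higher and 19.9% lower. Their median change was 1.13, beside 0.06 over all genes. The rise was led by TP53INP1 (2.66 ± 0.12), a stress-induced partner of p53, SESN1 (2.38 ± 0.06), a sestrin that restrains mTORC1, and PHLDA3 (2.37 ± 0.08), an inhibitor of AKT. Doxorubicin at 0.101 uM had 23 higher and 0 lower (24 and 0 unadjusted, median 0.83), where 3.4% and 3.74% of all genes were. Etoposide at 0.812 uM had 23 and 0 (25 and 0, median 0.72), where 2.48% and 2.09% were, and mitomycin C at 2.56 uM 20 and 0 (22 and 0, median 0.37), where 1.88% and 1.09% were. Aclacinomycin A at 0.105 uM had 0 of 28 called in either direction (2 higher and 1 lower unadjusted, median 0.0), where 0.345% of all genes were called higher and 0.428% lower. Methotrexate at 6 h had 1 higher and 0 lower (5 and 4 unadjusted), where 1.17% and 0.592% of all genes were. At 24 h it had 20 higher and 0 lower (22 and 0), where 3.42% and 1.32% were, with a median of 1.25 and GDF15, a stress cytokine, at 2.63 ± 0.32.

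Under trichostatin A the other targets went both ways while CDKN1A and MDM2 rose. Under trichostatin A at 0.143 uM at 6 h the other p53 targets were called higher in 11 and lower in 10 of 28, where 22.3% and 22.4% of all genes were, with a median of -0.03 beside -0.01 over all genes. FAS, a death receptor, fell by 2.31 ± 0.10 on the log2 scale, while TIGAR, a sugar bisphosphatase, rose by 1.34 ± 0.06. All 3 INK4 inhibitors measured, relatives of CDKN1A in function that block CDK4 and CDK6, rose: CDKN2B by 1.67 ± 0.13, CDKN2D by 1.49 ± 0.08 and CDKN2A by 0.32 ± 0.05. H-7 at 20.2 uM had 22 targets higher and 5 lower (median 0.43), where 23% and 27% of all genes were, led by TIGAR (1.95 ± 0.06). Cycloheximide at 5 uM had 15 higher and 2 lower (median 0.35), where 16.5% and 16.8% were.

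The regulators of p53 fell more often than they rose under camptothecin and trichostatin A. Of 23 measured, camptothecin at 0.31 uM at 6 h had 4 higher and 15 lower (median -0.51, beside 0.06 over all genes), where 27% of all genes were called higher and 19.9% lower, with COP1, a p53 ubiquitin ligase, at -2.24 ± 0.06, HIPK2, a kinase that phosphorylates p53, at -1.54 ± 0.06 and CREBBP, a p53 acetyltransferase, at -1.01 ± 0.07. Trichostatin A at 0.143 uM had 3 higher and 13 lower (median -0.25, beside -0.01), where 22.3% and 22.4% of all genes were, again with CREBBP (-1.77 ± 0.07) and HIPK2 (-1.30 ± 0.06). Doxorubicin at 0.101 uM had 0 higher and 1 lower (0 and 4 unadjusted by limma), where 3.4% and 3.74% of all genes were. Of 13 genes that p21 acts on, cyclins, kinases and PCNA, camptothecin at 0.31 uM had 3 higher and 5 lower, where 27% and 19.9% of all genes were. The largest changes were in CDK6 (-1.72 ± 0.05), CCNA2 (-1.27 ± 0.08) and CCNB1 (-1.18 ± 0.07).

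Across the 29 group means at 6 h, which share the arrays' common normalization, MDM2 was the gene next to CDKN1A in likeness after XPC, with Pearson r of 0.937 and 0.942, and r over the 24 h means was 0.762 and 0.709. XPC senses damaged DNA in nucleotide excision repair. POLH, a DNA polymerase that copies past lesions, followed at 0.907 (0.835 at 24 h). The genes nearest to MDM2 besides CDKN1A were XPC (0.912 and 0.839) and TNFRSF10B, a death receptor (0.896 and 0.863). Nearest to PPM1D were SESN1 (0.912 and 0.903), TNFRSF10A (0.910 and 0.828) and PRKAB1 (0.903 and 0.830). Nearest to CCNG1 were TNFRSF10D (0.871 and 0.837), CGRRF1 (0.830 and 0.629) and RSRP1 (0.830 and 0.546). MDM4 kept other company: PTBP2, a splicing regulator, at 0.959, SLC71A1 at 0.949 and PNISR at 0.939, with 0.006, 0.290 and 0.681 at 24 h. Among the members, r of CDKN1A was 0.825 with PPM1D, 0.503 with CCNG1 and -0.156 with MDM4 at 6 h, and 0.887, 0.454 and -0.709 at 24 h. These are descriptions over group means of unequal precision, and the 24 h means include low-signal arrays.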

How the data were processed

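RNA of each well was labelled as biotinylated cRNA and hybridised to an Affymetrix HT HG-U219 array. The authors deposited log2 values per probe set, made with RMA per the submitters' processing notes, whose version is not given in the sources used here. RMA sets all arrays to a common distribution, so each change is relative to the other genes. Detection calls were not used. Of 49386 probe sets, 93 are controls and 45253 carry 1 gene symbol in the platform annotation; no symbol changed when updated through the gene identifier, and 18239 genes remained. Where a gene had several probe sets, as 11822 did, it was read from the one of highest mean over the arrays. All columns belonged to labelled samples.

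Each time was fitted over its 94 arrays with a mean per group in limma 3.58.1 (R 4.3.3), with eBayes and a trend. The 6 to 24 h change came from a fit of all 282 arrays. Within a contrast, p-values were adjusted over all genes by Benjamini-Hochberg, with a threshold of 0.05. The fit was tested on simulated data. The number of arrays limits the precision.

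The members and gene lists were chosen with earlier results of these data known. The text names all 5 members, the 3 genes most correlated with each at 6 h, and up to 3 genes with the largest called change per list and comparison. Some genes of the lists, USP10, BTG2, FDXR and CDKN2C among them, were not analysed here. Motifs were counted in RefSeq windows of GRCh38.p14.

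The alternatives tried were a second quantile normalization, a filter that drops the lowest 40% of genes, the mean of all probe sets, a fit of only the groups compared, a replicate block, each replicate left out, and methotrexate arrays averaged by number. Leaving out low-signal arrays with and without the block and array weights used limits known from earlier results of these data, and leaving out 1 uneven 6 h array was added after seeing the data.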

Additional observations from a re-analysis of the deposited data

Results flagged for a closer look

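DMSO and methotrexate over 3 times made 6 groups of 4 to 10 arrays, and of their 30 pairs of a gene and a group 5 held an array far from the rest, where chance gives about 1 in 20; the pairs share arrays. CCNG1 under methotrexate at 6 h had a lowest array of 7.85, against 9.55 to 9.88 in the others, and the same array, of replicate number 3 and the largest ACTB difference of its time, gave the highest CDKN1A, 12.08, against 11.81 to 11.91. PPM1D under methotrexate at 12 h had a low-signal array at 7.96, against 9.14 to 9.48. In DMSO, MDM2 at 6 h had a lowest array of 7.95, against 8.23 to 8.43, and MDM4 at 24 h a highest of 8.93, a low-signal array, against 8.46 to 8.64.

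The difference from DMSO changed between 6 and 24 h, by limma over all 282 arrays, in 8 pairs of a gene and a compound. Under methotrexate it grew by 1.44 ± 0.21 in CDKN1A, 2.23 ± 0.37 in MDM2, 1.93 ± 0.29 in PPM1D and 1.58 ± 0.41 in CCNG1. Under mitomycin C at 2.56 uM it grew by 0.84 ± 0.27 in CDKN1A (adjusted p = 0.0258). Under H-7 at 20.2 uM it changed by -1.72 ± 0.36 in PPM1D, -0.93 ± 0.27 in CDKN1A and -0.81 ± 0.28 in MDM4. At 24 h the H-7 arrays of CDKN1A read 12.33, 12.47 and 9.24, the last a low-signal array.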

How the results depend on the processing

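No count of calls over the 5 genes together at 6 h moved by 1.5 times under any alternative run, though CCNG1 alone went to 10 higher calls without the uneven 6 h array, against 3 with it. Calls against DMSO at 6 h stayed at 44 to 50 higher and 3 to 5 lower with replicates left out, and calls between doses at 9 to 13. The later counts moved, and the cause was not tested beyond the low-signal arrays. At 12 h, 16 higher calls became 28 with the mean of all probe sets, 30 with only the groups compared, 38 without low-signal arrays, 31 with the replicate block added to that, 43 with array weights and 4 to 33 with replicates left out. The 5 lower calls became 2 when quantile normalized again, 3 with only the groups compared, 3 without low-signal arrays with the block, and 2 to 5 with replicates left out. At 24 h, 22 higher calls became 41 with only the groups compared, 56 without low-signal arrays, 49 with the block added and 57 with array weights, and stayed at 17 to 25 with replicates left out. The 4 lower calls became 2 when quantile normalized again, 7 with the mean of all probe sets, 10, 13, 12 and 19 in those 4 settings, and 3 to 7 with replicates left out. Between doses at 24 h, 2 calls became 1 with the mean of probe sets, 12 with only the groups compared, 0 with methotrexate arrays averaged, 14 without low-signal arrays, 17 with the block added, 17 with array weights and 1 to 5 with replicates left out. For the 6 to 24 h change, 8 calls became 17 with the mean of probe sets, 26 with only the groups compared, 33 without low-signal arrays, 28 with the block added, 34 with array weights and 7 to 15 with replicates left out. For medium, 1 call became 2 with only the groups compared, 2 without low-signal arrays, 2 with the block added, 2 with array weights and 0 to 1 with replicates left out.

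The replicate block alone gave 6 higher and 1 lower calls at 12 h, 0 between doses at 24 h and 4 for the 6 to 24 h change. Samples of 1 number did not move together: their deviations had a median correlation of -0.016, 0.004 and -0.005 at 6, 12 and 24 h, and all 3 pairs exceeded 0.1 in 0, 1 and 0 of 26 groups. Of 405 member results the block left 380 on their side of the threshold and weakened 25. Leaving out low-signal arrays gave 380 results that could be tested, of which 73 passed the threshold only then, 1 no longer passed and 2 reversed. Results reversed in 3 cases. CDKN1A under geldanamycin at 0.001 uM at 12 h (-0.88) became 0.11 when quantile normalized again, 0.17 without low-signal arrays, 0.28 with the block added and 0.155 with array weights, and ranged from -1.41 to 0.16 with replicates left out. PPM1D in that group (-0.90) became 0.145 without low-signal arrays and 0.23 with array weights, and ranged from -1.61 to 0.405 with replicates left out. PPM1D under H-7 at 12.4 uM at 24 h (-0.63) became 0.18 when quantile normalized again.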

Other observations

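Of 6 paralogs of the members measured, CDKN1C and CDKN1B, the relatives of CDKN1A, moved in opposite directions under trichostatin A at 0.143 uM at 6 h. The other paralogs are not given here. CDKN1A rose there by 0.41 ± 0.04, and 22.3% of all genes were called higher and 22.4% lower. CDKN1C, which encodes the p57 inhibitor of cyclin-dependent kinases, rose by 1.39 ± 0.13, and CDKN1B, which encodes p27, fell by 0.75 ± 0.11 on the log2 scale. CDKN2B rose under camptothecin at 0.31 uM as well, by 2.40 ± 0.13 at 6 h and 1.35 ± 0.24 at 24 h. Under doxorubicin at 0.101 uM at 24 h, where CDKN1A rose by 1.49, GDF15 rose by 5.33 ± 0.40 (adjusted p = 2e-17). CCNA2, the cyclin of S and G2 phase, fell by 2.06 ± 0.44 on the log2 scale in the same arrays (adjusted p = 0.000679), and 3% of all genes were called higher and 3.07% lower in that comparison. Under methotrexate at 24 h CDK1 rose by 0.67 ± 0.16.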
